A study of Caenorhabditis elegans with 10 samples.

Results

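The abu and pqn genes of Caenorhabditis elegans described here are abu-8, abu-13, abu-14 and pqn-13. They are 4 of the 145 genes that the authors' deposited lists of changed transcripts pair with a probe set, by a gene number found in RefSeq. Each was on the list of transcripts decreased in nep-1 mutant larvae, so values from the larvae chose the members. A RefSeq gene table (assembly WBcel235) holds 71 genes named abu or pqn, 15 abu and 56 pqn. Only these 4 could be followed, because the lists pair the other 67 with no probe set and they were not analysed here.

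Genes called abu were first known as transcripts that rise when the unfolded protein response is blocked, and pqn proteins carry stretches rich in glutamine and asparagine. Several members of both families are made by cells of the pharynx, the feeding organ, and are thought to build the flexible cuticle that lines its lumen. That lining is shed and made again at every moult, and transcripts of cuticle proteins are known to rise and fall with the larval moulting cycle.

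RNA of whole worms was measured on 10 arrays, each with its own sample, for wild-type worms of the Bristol variety and for nep-1 mutants. nep-1 encodes a neprilysin, a peptidase of the cell surface; the mutant allele came from chemical (EMS) mutagenesis, and the labels do not describe the lesion. There were 2 arrays of wild-type and 2 of mutant L3 larvae, and 3 of wild-type and 3 of mutant adults. All worms were kept at 20 °C on NGM agar with OP50 bacteria, and adult age in days was not given in the labels. The replicates are called biological in the titles, with no statement of separate cultures. The p-values therefore measure the spread between these samples or, in the fit with pairs described below, only what is left within pairs.

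The names in the sample descriptions join a mutant array to a wild-type array. The larval pairs were wild-type 1 with mutant 1 (pair 1) and wild-type 2 with mutant 2 (pair 2). The adult pairs were wild-type 1 with mutant 2 (letter A), wild-type 2 with mutant 3 (letter B), and wild-type 3 with mutant 1. The last pair is described by bare names with no letter and is called the bare-name pair below. The descriptions write the mutant as BR2845 for larval mutant 1 and as 2815A and 2815B for the lettered adults, and give no number for larval mutant 2 or the bare-name mutant. Wild-type worms are written N2 for larval wild-type 1 and the lettered adults, and WT for the others. It is not certain that the mutant larvae and adults were of a single strain.

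The nep-1 transcript itself was lower on every mutant array, at log2 levels of 5.20 and 4.85 against 8.19 and 9.17 in wild-type larvae. In adults it lay between 5.05 and 5.42 in mutants and between 6.01 and 7.32 in wild-type worms. Present calls covered 11184 to 13939 probe sets per array (49.6% to 61.8%), with the highest share on the bare-name mutant array. The bare-name adults correlated with the larval arrays at 0.886 to 0.909 across probe sets, against 0.822 to 0.844 for the lettered adults. Markers of pharyngeal muscle (0 of 5), of other pharyngeal cuticle proteins (0 of 12) and of pharynx regulators (0 of 3) had no probe set paired by the lists. The pharyngeal source of the transcripts was therefore not checked in these whole worms, where fewer cells of a type and less RNA per cell cannot be told apart.

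Not every probe set reads a single gene. abu-8 had 2 probe sets, 172360_x_at and 194211_x_at, and both end in the suffix that marks probes shared with other transcripts in the array maker's naming. This suffix was carried by 1227 of the 22548 probe sets (5.44%). The files call the gene abu-7, but its gene number is that of abu-8, and abu-7, abu-6 and abu-15 lie near it with 6, 7 and 8 protein-coding genes between. The values given for abu-8 may therefore contain signal from its relatives. The abu-13 probe set, 183975_s_at, carries the suffix for probes common to several transcripts, as do 24.3% of all probe sets. The probe sets of abu-14 (183577_at) and pqn-13 (185795_at) carry neither suffix. The files name abu-13 as pqn-46 and abu-14 as pqn-95, which are older symbols of the same gene numbers. Likewise, 2 other probe sets that the files name pqn, pqn-32 and pqn-43, have the gene numbers of dbd-8 and ketn-1. RefSeq names neither of them abu or pqn, so they were not counted as members.

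In L3 larvae the probe sets of the 4 genes were among the brighter ones on their arrays. Levels are deposited log2 RMA values, in which a difference of 1 is a factor of 2 in intensity, and levels of different genes are not compared because each has its own probes. All 16 larval values were called present and stood between the 74.8th and the 98.5th percentile of their array. The list from which the members come required a present call on both wild-type larval arrays, so these high larval levels were partly fixed by the choice of members. abu-14 spanned the widest larval range of the 4, from 9.14 to 11.97. pqn-13 ranged from 7.43 to 10.16, abu-13 from 9.38 to 10.92 and abu-8 from 8.70 to 9.84.

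In adults each gene was low in the lettered pairs and high in the bare-name pair. On the 4 lettered arrays pqn-13 lay between 4.84 and 5.09, at or below the 39.2nd percentile, and both wild-type arrays called it absent. On the same arrays abu-13 lay between 5.41 and 6.69, abu-14 between 5.34 and 7.54 and abu-8 between 5.28 and 8.50. Of these 16 values, 10 were called present. In the bare-name adults all 8 values were called present, with levels of 7.20 to 10.30.

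**Figure D1:**
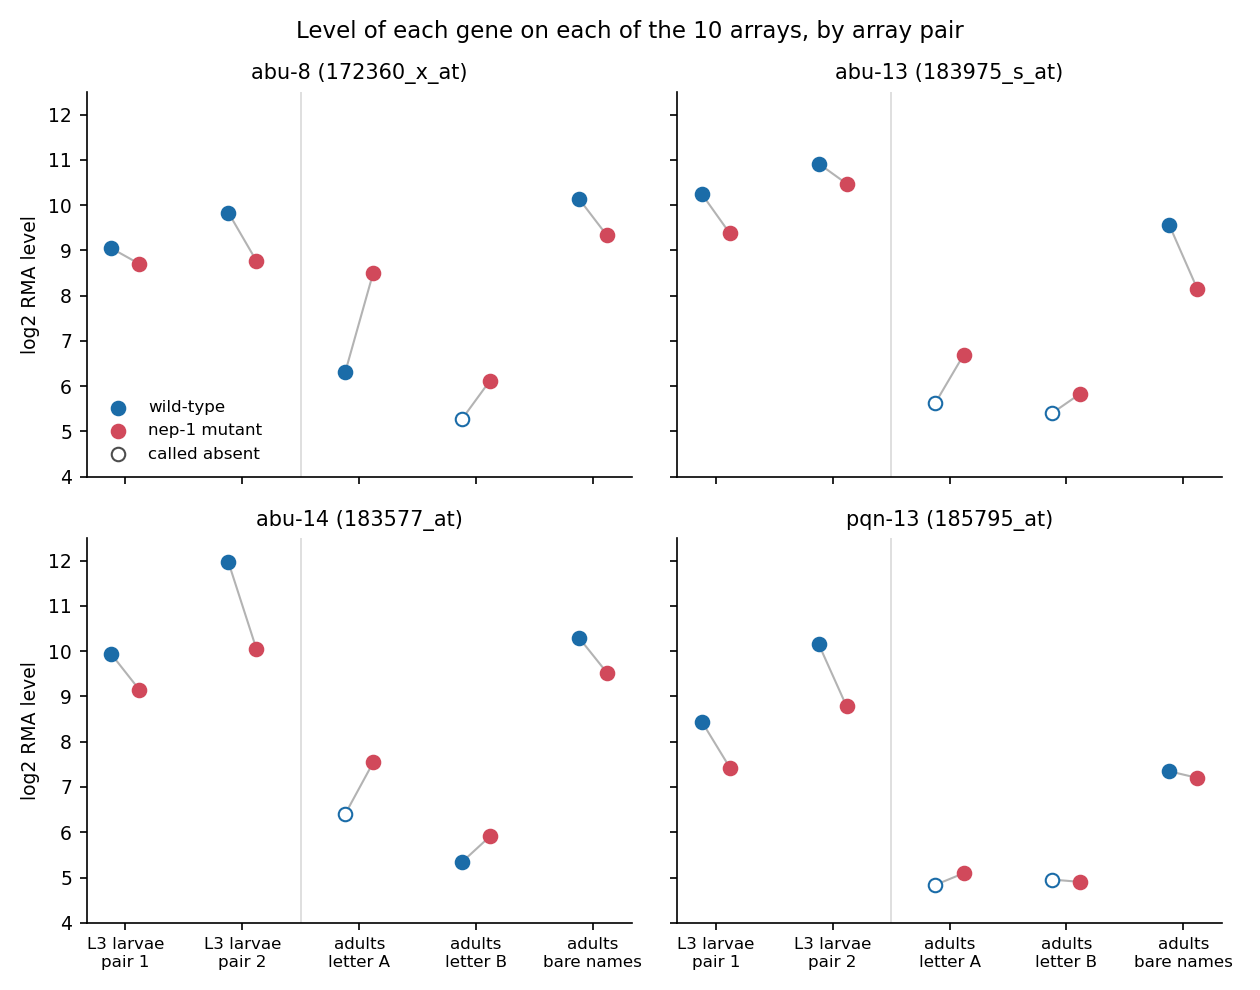
Log2 RMA level (y axis) of abu-8, abu-13, abu-14 and pqn-13 on each of the 10 arrays, grouped on the x axis by the pair of arrays named alike, with wild-type in blue, nep-1 mutant in red, and open circles for absent calls. In each panel the lettered adults lie below all 4 larval arrays and below both bare-name adults.

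The stage differences that follow are descriptions with no test, because the larval arrays chose the members. abu-13 had the largest of the 4. Its levels were 10.25 and 10.92 in wild-type larvae and 9.38 and 10.47 in mutant larvae. Wild-type adults had 5.64 (letter A), 5.41 (letter B) and 9.56 (bare name), and mutant adults had 6.69, 5.84 and 8.15 in the same order. The bare-name wild-type array lay above the lowest larval array, so the stages overlapped on that array alone. Averaged over genotypes, the adult minus larval difference of abu-13 was −3.37 ± 0.85 (SE) on the log2 scale.

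pqn-13 was the single member whose 4 larval arrays all lay above its 6 adult arrays. Its levels were 8.45 and 10.16 in wild-type larvae and 7.43 and 8.78 in mutant larvae. Wild-type adults had 4.84, 4.95 and 7.35 in letter A, letter B and the bare name, and mutant adults had 5.09, 4.90 and 7.20. The margin was narrow: mutant larva 1 exceeded the bare-name wild-type adult by less than the spread between the larval arrays. The adult minus larval difference of pqn-13 was −2.98 ± 0.69 (SE).

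abu-14 had levels of 9.93 and 11.97 in wild-type larvae and 9.14 and 10.05 in mutant larvae. In adults the wild-type arrays had 6.40 (A), 5.34 (B) and 10.30 (bare name), and the mutant arrays had 7.54, 5.91 and 9.52. Both bare-name values fell inside the larval range. The stage difference was −2.77 ± 1.06 (SE).

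abu-8 had the smallest stage difference of the 4. Probe set 172360_x_at read 9.05 and 9.84 in wild-type larvae and 8.70 and 8.77 in mutant larvae. Wild-type adults had 6.31 (A), 5.28 (B) and 10.14 (bare name), and mutant adults had 8.50, 6.13 and 9.33. The bare-name wild-type adult thus had the highest abu-8 value of all 10 arrays, and the letter A mutant came close to the mutant larvae. The stage difference was −1.47 ± 0.97 (SE), and probe set 194211_x_at gave −0.93. Its values followed those of the other probe set, with a Pearson r of 0.982 over the 10 arrays, which is a description since both read the same samples and may share targets.

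The median stage difference was −2.88 for the 4 genes and −0.06 for all probe sets, with the present calls required in larvae bearing on that gap. Without both bare-name arrays the differences were −4.36 for abu-13, −3.98 for abu-14, −3.76 for pqn-13 and −2.54 for abu-8. The 4 larval arrays lay above all 6 adult arrays for 1 of 4 genes (13.3% of all probe sets) and above the 4 lettered adults for 4 of 4 (24.5%). Nothing is read from these counts, since the larval side was fixed by the choice of members.

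The stage difference was also taken within each genotype. The adult mean minus the larval mean in wild-type worms was −3.71 for abu-13, −3.60 for abu-14, −3.59 for pqn-13 and −2.20 for abu-8. Among mutants it was −3.03, −1.94, −2.37 and −0.75 in the same order. The smaller gap in mutants was present in all 4 genes and includes the lower mutant larval values by which they were selected. Against the lettered adults alone the wild-type larvae were higher by a factor of at least 33.4 for abu-13 and at least 21.2 for pqn-13. Both are bounds, because both lettered wild-type arrays called these genes absent. The factors were 33.8 for abu-14 and 12.6 for abu-8, each with 1 of 2 lettered wild-type arrays absent. On probe set 194211_x_at the abu-8 factor was 6.31.

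The bare-name adults had more of all 4 transcripts than the lettered adults. The difference is between adult arrays, while its error comes from a single limma fit of genotypes and pairs over all 10 arrays. Its pair terms take up the spread between pairs, so the error reflects how the mutant minus wild-type difference varied from pair to pair. With a single bare-name pair, the p-values below do not measure the spread between pairs of adult samples. In that fit abu-14 was 3.61 ± 0.41 (SE) higher on the log2 scale, a factor of 12.2 (adjusted p 0.00803). abu-8 was 3.18 ± 0.54 higher, a factor of 9.08 (adjusted p 0.0130), and abu-13 was 2.97 ± 0.46 higher, a factor of 7.81 (adjusted p 0.0112). pqn-13 had the smallest difference, 2.33 ± 0.18 or a factor of 5.02, with an adjusted p of 0.00733. With adult arrays only, the limma adjusted p was 0.0374 for abu-8, 0.0342 for abu-13 and 0.0298 for both abu-14 and pqn-13. All 4 of 4 genes were therefore called higher in the bare-name pair, where 9.65% of all probe sets were called higher and 13.2% lower. On the larval decreased list, from which the members come, 86 of 142 probe sets (60.6%) were called higher. The present calls required in larvae bear on the comparison with all probe sets. The median difference was 3.07 for the 4 genes and near 0 (−0.0038) for all probe sets. Both bare-name arrays lay above all 4 lettered adults in 4 of 4 genes, which 20.4% of all probe sets also did.

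**Figure D2:**
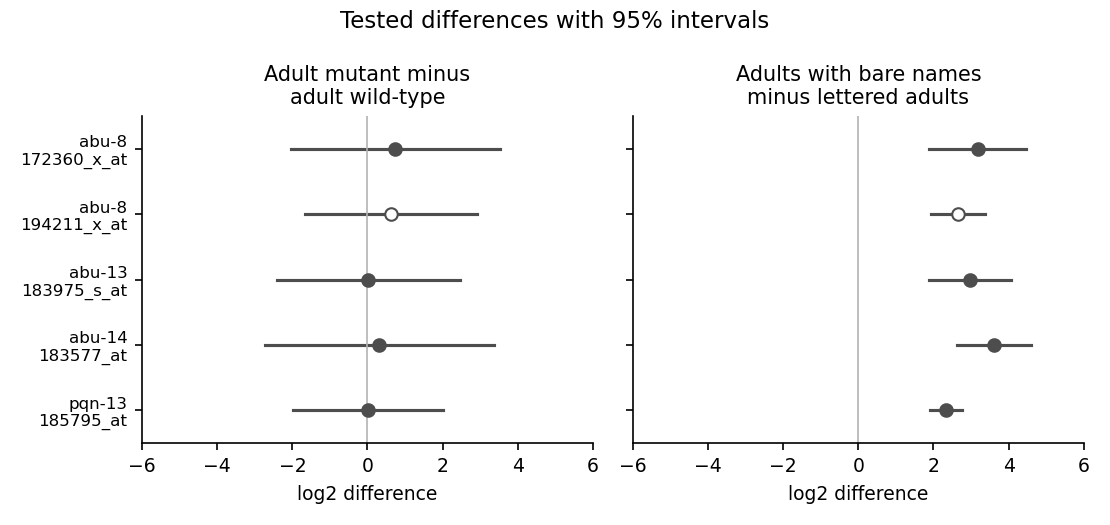
Log2 differences (x axis) of the 4 genes and of the other abu-8 probe set (open circles) for adult mutant minus adult wild-type and for bare-name minus lettered adults; bars are 95% intervals of the limma fits, not adjusted over probe sets. The bare-name difference is above 0 for every probe set shown, while the adult genotype intervals all span 0.

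The excess in the bare-name pair was larger in wild-type worms than in mutants for each gene. For abu-14 it was a factor of 21.5 in wild-type and 6.95 in mutant worms, and for abu-8 20.4 and 4.04. The other abu-8 probe set, 194211_x_at, gave a smaller contrast, 8.89 and 4.49. For abu-13 it was at least 16.5 in wild-type and 3.71 in mutant worms, and for pqn-13 at least 5.47 and 4.61, with both lettered wild-type arrays absent. With 1 bare-name array per genotype this contrast has no replicate check and was not tested. Leaving out the bare-name wild-type array lowered the difference to 2.02 for abu-8 and 1.89 for abu-13. Leaving out the letter B mutant array raised the adjusted p to 0.0593 for abu-8 and 0.0514 for abu-13.

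Against larvae of their genotype, the bare-name adults were not uniformly lower. In wild-type worms abu-8 was 0.70 above the larval mean on the log2 scale, while abu-14 stood at −0.65, abu-13 at −1.02 and pqn-13 at −1.95 relative to it. In mutants abu-8 was 0.59 above the larval mean, and abu-14 stood at −0.08, pqn-13 at −0.90 and abu-13 at −1.77. The 2 bare-name arrays also had the highest difference between 3' and 5' actin probe sets, 0.25 and 0.61 against −0.06 to 0.07 in the lettered adults. The same difference for GAPDH overlapped, at 0.007 and −0.030 against −0.389 to −0.006 in the lettered adults. The bare-name level of the spiked bioB control was lower, 6.91 and 7.15 against 7.79 to 8.08. The part of these measures in the result was not tested.

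No difference between mutant and wild-type adults passed the test. The mean mutant minus wild-type difference was 0.75 ± 1.22 (SE) for abu-8 and 0.31 ± 1.34 for abu-14. It was 0.02 ± 1.07 for abu-13 and 0.02 ± 0.88 for pqn-13. Each limma adjusted p was 1. No probe set on the array passed this test (0%), and 69 had an unadjusted p under 0.05, or 623 with the description pairs as a block. Even nep-1, which was lower on every mutant array, did not pass (−1.54 ± 0.37 SE). The lack of calls therefore does not show a lack of difference. The 95% intervals, not adjusted over probe sets, ran from −2.04 to 3.54 for abu-8 and from −1.98 to 2.02 for pqn-13. With the description pairs as a block they were narrower, from −0.47 to 1.96 for abu-8, from −1.01 to 1.06 for abu-13, from −0.61 to 1.23 for abu-14 and from −0.38 to 0.41 for pqn-13.

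Within the pairs the differences went opposite ways. In the letter A pair the mutant was above wild-type in 4 of 4 genes (45.4% of all probe sets), by 2.20 for abu-8, 1.14 for abu-14, 1.05 for abu-13 and 0.25 for pqn-13. In the letter B pair it was above in 3 of 4 genes (51% of all probe sets), by 0.85 for abu-8, 0.57 for abu-14 and 0.43 for abu-13, with pqn-13 at −0.05. In the bare-name pair it was below in 4 of 4 genes (51.3% of all probe sets), at −1.41 for abu-13, −0.81 for abu-8, −0.77 for abu-14 and −0.15 for pqn-13. The other abu-8 probe set, 194211_x_at, had only −0.03 there, against 1.27 in letter A and 0.65 in letter B. The 4 genes moved together, so these counts are not 4 independent observations. For pqn-13 and abu-13 the wild-type array of both lettered pairs was called absent. So was the letter A wild-type array for abu-14 and the letter B wild-type array for abu-8. The differences of those genes in those pairs therefore rest on wild-type values not above background. The wild-type array was called present for abu-8 in letter A, for abu-14 in letter B, and for each gene in the bare-name pair.

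In larvae the mutant was below wild-type in both pairs for each gene. The members were chosen by decreased calls between these same larval arrays, so this is given as a description. In pair 1 the differences were −0.35 for abu-8, −0.87 for abu-13, −0.79 for abu-14 and −1.02 for pqn-13. In pair 2 they were −1.07, −0.44, −1.92 and −1.38 in the same order. The genotype means differed by −1.35 for abu-14, −1.20 for pqn-13, −0.71 for abu-8 and −0.66 for abu-13. Both mutant arrays lay below both wild-type arrays for abu-8 alone, 1 of 4 genes, where 12.6% of all probe sets did. For the other 3 genes, mutant larva 2 lay above wild-type larva 1.

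That overlap followed the larval pairs. Each member's probe set read higher in pair 2 than in pair 1 in both genotypes. In wild-type larvae the excess of pair 2 was 2.04 for abu-14, 1.71 for pqn-13, 0.79 for abu-8 and 0.67 for abu-13. Among mutant larvae it was 0.91, 1.35, 0.07 and 1.10 in that order. For abu-8 in mutants this did not hold on other measures. Probe set 194211_x_at had −0.07, and the scaled signal of 172360_x_at was lower in pair 2 (659.6 against 803.2). For pqn-13 and abu-13 the mean difference between pairs (1.53 and 0.88) exceeded the mean difference between genotypes, and for abu-14 it did so by a little (1.48). The 2 pairs also differed in the bioB control, at 5.51 and 5.32 in pair 1 and 7.67 and 7.50 in pair 2. Its part in the difference between larval pairs was not tested.

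The authors' deposited table of change calls shows the same arrangement with another measure, the scaled signal. A probe set was listed as decreased in larvae when it was called so in at least 3 of the 4 ways to set a larval mutant array against a wild-type one. That held for 148 of 22548 probe sets (0.656%), of which 142 also had the present calls. Decreased calls were made in all 4 pairs for 12 probe sets of the authors' deposited table, in 3 for 136 and in 2 for 644. Each of the 4 genes stood at the minimum of 3, and so did the other abu-8 probe set. Those with 2 calls have no gene name in the lists, so family members just outside the threshold were not analysed here.

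The missing call differed between genes. For abu-13, abu-14 and pqn-13 it was mutant larva 2 against wild-type larva 1, with log2 ratios of 0.2, 0.0 and 0.3 in the authors' deposited table. For abu-8 it was mutant larva 1 against wild-type larva 1, with 0.0 for 172360_x_at and −0.2 for 194211_x_at. The strongest larval ratios in the authors' deposited table set mutant larva 1 against wild-type larva 2, at −2.9 for abu-14 and −2.5 for pqn-13.

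In adults the authors' deposited table held calls in both directions for each gene. abu-8 was called increased in 5 of 9 pairs of arrays and decreased in 3, abu-14 in 4 and 3, abu-13 in 3 and 3, and pqn-13 in 2 and 2. Every decreased call set a mutant array against the bare-name wild-type array. Against that array the letter B mutant had ratios of −4.6 for abu-14, −4.4 for abu-8, −3.9 for abu-13 and −2.4 for pqn-13. The bare-name mutant against the letter B wild-type array gave the opposite, 5.1 for abu-14, 4.0 for abu-8, 3.4 for abu-13 and 3.3 for pqn-13. The abu-8 probe set 194211_x_at reached 6.7 in that comparison, where its wild-type scaled signal was 1.9 and called absent.

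**Figure D3:**
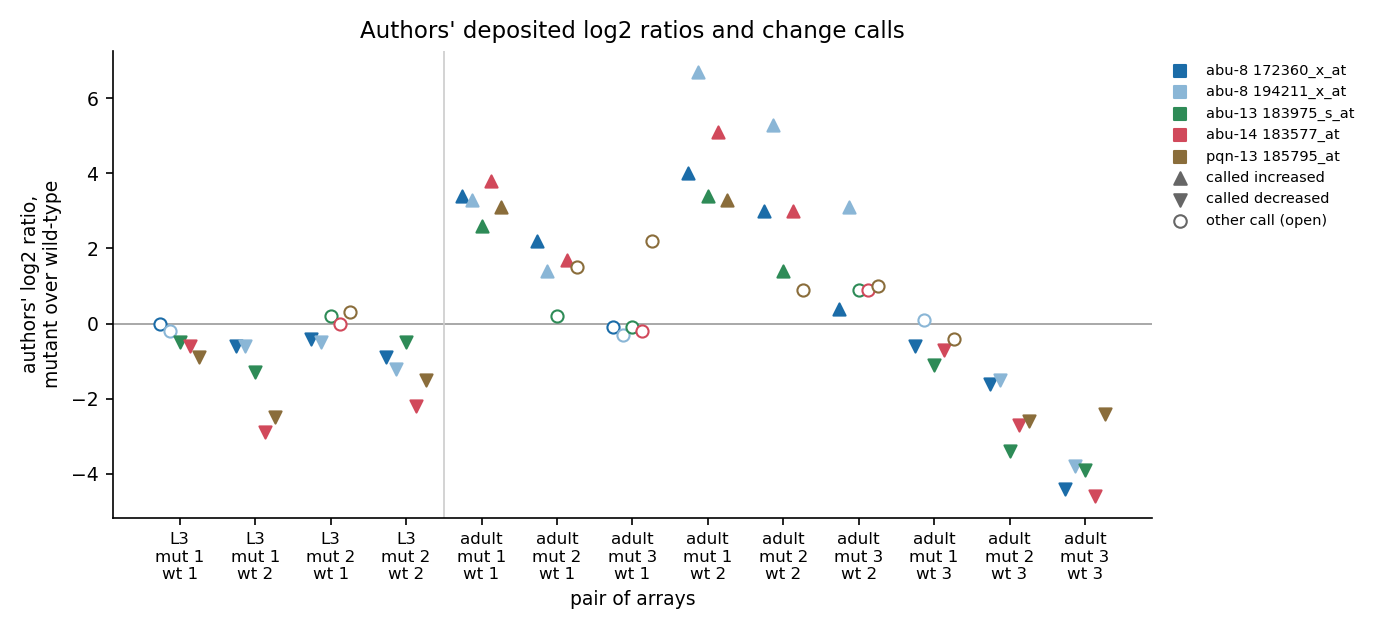
The authors' deposited log2 ratio of mutant over wild-type (y axis) for each of 4 larval and 9 adult pairs of arrays (x axis), with triangles for increased or decreased calls and open circles for other calls. Larval ratios lie between −2.9 and 0.3, while adult ratios run from −4.6 to 6.7 and lie between −4.6 and 0.1 where wild-type 3, the bare-name array, is the baseline.

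The 4 genes moved together over the 10 arrays. Between them Pearson r ranged from 0.778 for abu-8 with pqn-13 to 0.965 for abu-13 with pqn-13, as a description of 10 arrays that fall into 6 high and 4 low ones. Of 141 other named genes, those most like the centred mean of the 4 were dbd-19 (r = 0.991), bus-5 (0.990), H23N18.5 (0.989) and col-41 (0.988). agmo-1 (0.985), dbd-8 (0.985), F41F3.3 (0.979) and lon-8 (0.978) followed. The files name dbd-8 as pqn-32. bus-5 is a gene that affects the surface of the body cuticle, col-41 encodes a collagen, agmo-1 a lipid-cleaving monooxygenase, and lon-8 a secreted protein that affects body length. All 8 were on the same larval list, so a shared larval pattern was part of how they came to be compared. ketn-1, pqn-43 in the files, was on the larval increased list, with r from 0.33 (pqn-13) to 0.63 (abu-8).

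**Figure D4:**
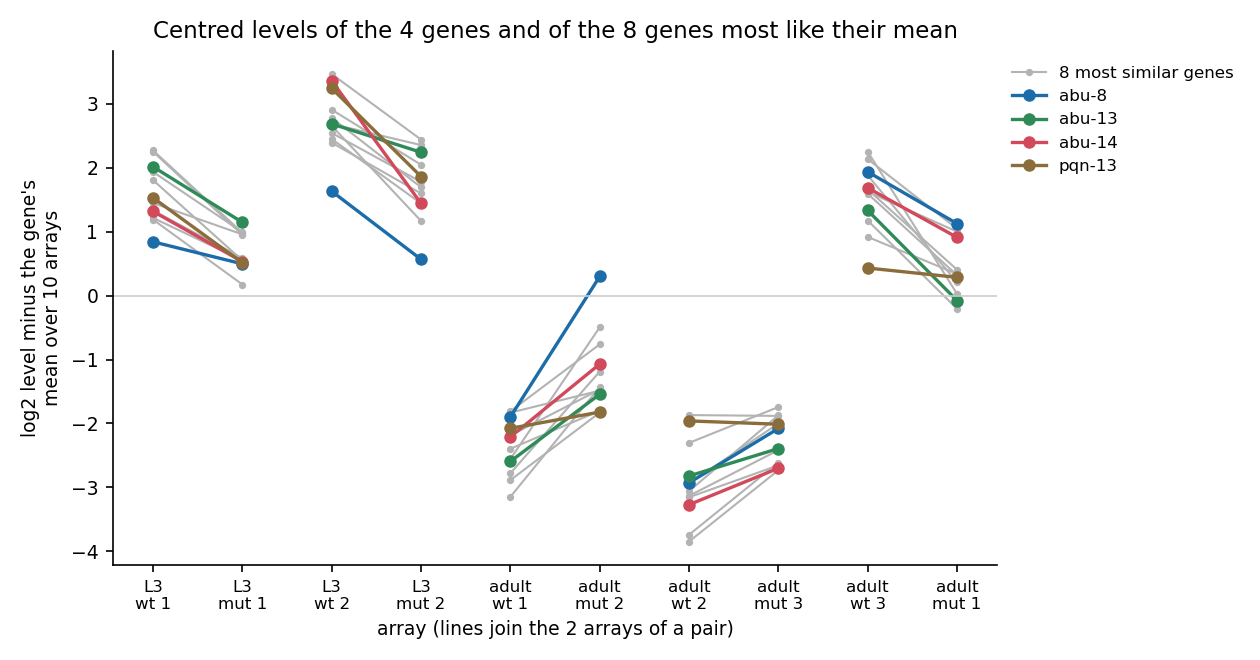
Log2 level minus each gene's mean over 10 arrays (y axis) on every array (x axis), for the 4 genes in colour and the 8 genes most like their mean in grey, with lines joining the 2 arrays of a pair. The mutant end of each coloured line is the lower in larval and bare-name pairs, and abu-8 leaves the others most in the letter A mutant.

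Each member also had nearest genes of its own. For abu-13 they were lon-8 and grl-7, the latter a hedgehog-related gene (both r = 0.995), and for pqn-13 bed-3, which encodes a zinc finger protein (0.991), and agmo-1 (0.989). For abu-14 they were dbd-19 (0.993) and bus-5 (0.981). abu-8 was nearest to Y47D7A.13 (0.969) and C02E7.6 (0.963).

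Other cuticle and moulting genes paired by the lists can be set beside these. All were chosen on the same arrays as the members, so their stage differences too are descriptions: of 13 named cuticle collagens, 11 had lower and 2 higher means in adults. Examples are rol-6, which shapes the body (−3.56), and dpy-5, another body-shape collagen (−3.54). In the bare-name adults 6 of 13 collagens were called higher, where 9.65% of all probe sets and 60.6% of the larval decreased list were. Among them were dpy-5 by 3.46, col-41 by 3.47 and col-90 by 3.44 (limma adjusted p 0.0293, 0.00813 and 0.0238). col-142 was called lower at −2.53 (0.0324), as were 13.2% of all probe sets. Of 14 epidermal and moulting genes looked for, 2 were named. Both were called higher in the bare-name adults, as were 9.65% of all probe sets. The difference was 2.45 for mlt-8 and 1.63 for the astacin protease gene nas-6 (limma adjusted p 0.0270 and 0.00803). phat-4, the single gene named of 7 pharyngeal gland genes looked for, had −0.37 in the bare-name adults (limma adjusted p 0.610). The larval decreased list held each of these genes except col-142. Of its 142 probe sets, 86 (60.6%) were called higher in the bare-name adults. The direction of the 4 genes in the bare-name pair was therefore shared with most of that list.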

How the data were processed

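The authors' deposited expression table holds log2 values made with RMA, per the submitters' processing notes. Other deposited tables give the scaled signal and present or absent call of each array, and compare every mutant with every wild-type array of its stage by a log2 ratio and an increased or decreased call, per the file headers. The upstream version and the genome build were not given in the sources used here, and 40 other per-sample columns were not used. The deposited log2 values were not normalised again. After removal of 77 controls from 22625 probe sets, 22548 were tested without a filter with limma 3.58.1 in R 4.3.3. The fit gave a mean to each of 4 groups over 10 arrays (6 residual degrees of freedom, 2.57 prior). The comparison of adult pairs added terms for the description pairs (3 residual, 3.66 prior). Tests were two-sided, with Benjamini-Hochberg adjustment over all probe sets and a threshold of 0.05. For arrays, their number limits the precision. Scripts were tested on simulated data. Tables were read with Python 3.11.15.

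The members, lists and tests were chosen with earlier results of these data known. A test of the stage difference had been planned for the members, but the larval arrays chose them, so the stage, larval genotype and larval pair differences are given as values with no test. Where both arrays of a dim group were called absent, a fold is a bound, with each dim array at the higher of its own value and the lowest level among its present probe sets. Of 196 listed probe sets, 152 gave a single gene in RefSeq (145 genes), 4 gave several, 37 came without a gene number, and the numbers of 3 are missing from the table. A gene with several probe sets was represented by the one with the highest mean. Named genes were the members, up to 4 of each list by mean level, the 8 genes most like the members' mean, the 2 nearest to each member, and nep-1. col-142 was named after its values were seen. The lists also held yolk and oocyte genes and genes of the unfolded protein response, of which 0 of 10 and 0 of 8 were named. Promoter motifs and sequences were not analysed here.

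Arrays joined by the descriptions deviated together from their group means (correlations 0.561, 0.612, 0.647 and 0.623 across probe sets, the larval value holding for both larval pairs), so these pairs were used. Adult arrays with the same title number deviated apart (−0.536, −0.222 and −0.652).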

Additional observations from a re-analysis of the deposited data

How the results depend on the processing

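The differences of the 4 genes were recomputed after quantile normalisation, centring on array medians, a filter to the upper 60% of probe sets, log2 of the scaled signal plus 16, an intensity trend with robust estimation, blocks, each stage alone, the other abu-8 probe set, and with arrays left out. Leaving out either larval pair was chosen after seeing the data. The stage, larval genotype and larval pair differences, which were not tested, moved by less than 1 SD between replicates under each of these. That SD is a wide yardstick, and for the stage difference it includes the gap between bare-name and lettered adults. The abu-8 stage difference went from −1.47 to −2.54 without both bare-name arrays. With each array left out in turn, the larval genotype difference ran from −2.37 to −0.33 for abu-14 and from −2.06 to −0.34 for pqn-13. It ran from −1.10 to −0.31 for abu-8 and from −1.21 to −0.11 for abu-13. The adult genotype difference, which never passed, changed sign for abu-13 after quantile normalisation (−0.0573), and for abu-13 (−0.0426) and pqn-13 (−0.047) after centring. With the description pairs as replicate block it was 0.75 for abu-8 and did not pass either. Without both bare-name arrays no comparison of adult pairs was left.

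With each array left out in turn, the adult genotype difference ranged from −0.24 to 2.20 for abu-8, from −0.71 to 1.37 for abu-13, from −0.69 to 1.79 for abu-14 and from −0.72 to 0.84 for pqn-13. The adult pair difference ranged from 2.02 to 4.35 for abu-8 and from 1.89 to 4.04 for abu-13. Counts over all probe sets depended most on the setting. The stage count of 8033 became 3660 on scaled signals, 3831 without the first larval pair and 5342 without the second. The adult pair count of 5158 became 3164 with adult arrays only or without either larval pair, where fewer residual degrees of freedom remain, and ranged from 550 (without adult mutant 3) to 7273 (without adult wild-type 3) with each array left out. The adult genotype count was 0 under each of these settings. With the title numbers as a block, no adult pair call of the 4 genes changed. Each group has 2 or 3 arrays, which limits what could be called.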
